A study of Mus musculus with 19 samples.

Results

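The levels of 10 imprinted genes were followed across lines of mouse induced pluripotent stem cells, made by reprogramming fibroblasts until they regain the ability to form any tissue of the body. The genes were Plagl1, Impact, Peg3, Usp29, Grb10, Mest, Snrpn, Nnat, Peg10 and Igf2r. They were taken by name from a list of imprinted genes outside distal chromosome 7 and the Dlk1-Dio3 cluster, by a rule with no threshold on their values but with earlier results of these data known, and are 10 of the 52143 gene identifiers in the count table. All 10 passed the filter on low counts, as did 19700 genes in all.

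The study compared 3 groups of lines, and each line was reprogrammed from fibroblasts of embryos at embryonic day 14.5 that came from matings of OB-Rdb/+ heterozygous mice. The 4 control lines (7 libraries) were wild type for the leptin receptor gene. The 4 db/db lines (8 libraries) were homozygous for the db mutation of that receptor. In the 2 corrected lines (4 libraries) the mutation of db/db cells had been repaired with CRISPR-Cas9, but the db/db line of their origin is not labelled. All lines shared a STEMCCA lentivirus expressing Oct4, Sox2, Klf4 and cMyc, and the study asked, from its title, how signalling by the leptin receptor bears on protein synthesis and on the making of neurons. The control lines carry the names A5 (lines 1 and 3) and B1 (lines 2 and 4), and the db/db lines the names db5 (lines 1 and 3) and db7 (lines 2 and 4). The 2 lines of a name differed by a median of 0.0383 to 0.1059 on the log2 scale over 9050 genes, and the 2 corrected lines, which share no name in the labels, by 0.0325. Lines of different names, with the corrected lines taken as 1 kind, differed by 0.138 to 0.319. The lines therefore fell into 5 kinds, and p-values that treat each line as a replicate measure a spread between lines that are partly near copies and may be technical.

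Imprinted genes are read mainly from the copy inherited from 1 parent. The choice is set by DNA methylation laid down in the egg or sperm at an imprinting control region and kept by proteins such as ZFP57 and TRIM28 when most other methylation is erased. Pluripotent stem cells in culture are known to lose or gain such marks at single loci. All 10 genes lie near regions methylated in the egg. Plagl1, Impact, Peg3, Usp29, Mest, Snrpn, Nnat and Peg10 are read from the paternal copy. Grb10 and Igf2r are read mainly from the maternal copy in most tissues. Counts per gene do not separate the parental copies, so every value below is the sum of both.

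Poly(A) RNA was sequenced in stranded libraries of 27333914 to 41203703 estimated counts (median 34455891). Levels are CPM, counts scaled to the total of each line after that total was adjusted by edgeR's TMM scaling. The summed level of 10 pluripotency markers was 6125 to 6682 CPM in control lines, 6533 to 6962 in db/db lines and 5933 to 5945 in corrected lines, so the labelled cell type was borne out by its markers. These include Pou5f1 (Oct4) and Sox2, which the lentivirus also carries, and whether its reads entered the sums was not tested. The most abundant marker was Pou5f1 in B1 lines and Dppa5a in A5, db5, db7 and corrected lines. The sum of 10 fibroblast markers was 223 to 319 CPM in control, 113 to 180 in db/db and 176 to 219 in corrected lines. Its members Lum and Twist2 were under 1 CPM in every line. The sums of neural markers were 86.2 to 119, 60.9 to 87.6 and 37.1 to 38.4 CPM in the same order of groups, and those of primitive endoderm markers 9.89 to 12, 8.34 to 15.9 and 16.4 to 17.9. Fewer cells of a type and less RNA per cell cannot be told apart in such bulk samples. The part of these markers in the results below was not tested.

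The start sites of several of these genes lie in CpG-rich sequence, where imprinted methylation is placed. The following promoter windows, from 250 bases before to 50 after a start site in RefSeq on GRCm38.p6, are shown for Peg3, whose window overlaps that of Usp29, for Plagl1, the member that fell in db/db lines, and for Snurf and Snrpn, which share 1 start. Capitals mark CpG dinucleotides, the bases that carry this methylation.
Peg3, chr7:6730370-6730669, minus strand: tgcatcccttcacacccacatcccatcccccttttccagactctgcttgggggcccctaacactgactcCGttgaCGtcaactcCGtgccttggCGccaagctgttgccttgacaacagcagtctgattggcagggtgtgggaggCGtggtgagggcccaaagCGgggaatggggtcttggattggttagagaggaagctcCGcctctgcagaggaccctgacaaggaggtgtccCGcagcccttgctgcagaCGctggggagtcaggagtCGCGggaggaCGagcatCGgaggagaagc
Plagl1, chr10:13090582-13090881, plus strand: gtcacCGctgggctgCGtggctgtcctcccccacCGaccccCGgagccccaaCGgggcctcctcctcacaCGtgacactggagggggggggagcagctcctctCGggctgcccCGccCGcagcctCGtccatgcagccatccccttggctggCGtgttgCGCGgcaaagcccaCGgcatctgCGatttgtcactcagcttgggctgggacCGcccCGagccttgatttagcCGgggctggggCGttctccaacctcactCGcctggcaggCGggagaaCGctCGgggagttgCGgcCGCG
Snurf and Snrpn, chr7:60005150-60005449, minus strand: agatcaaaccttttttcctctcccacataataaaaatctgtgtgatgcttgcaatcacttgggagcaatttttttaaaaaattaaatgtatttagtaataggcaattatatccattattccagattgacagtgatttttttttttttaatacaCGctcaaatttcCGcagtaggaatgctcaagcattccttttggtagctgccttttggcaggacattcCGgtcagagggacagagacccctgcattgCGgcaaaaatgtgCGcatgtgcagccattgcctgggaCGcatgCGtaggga
The Peg3 window held 13 CpG sites, the Plagl1 window 26 and the Snurf and Snrpn window 7, while the median over 32851 RefSeq promoters of this length was 7. The windows of Peg3 and Usp29 shared 263 of 300 bases on opposite strands, with start sites 164 bases apart. The sequence TGCCGC, which ZFP57 binds when methylated, was searched on both strands. It was present in 6 of the 14 windows that the table held for 8 of the members, and in 11.6% of all promoters. Several of the 14 windows overlap, so they are not independent. The Plagl1 and the shared Snurf and Snrpn windows each held 1 match. The sequence GCCATNTT, a form of the YY1 site, was in 0 of the 14 windows and in 6.1% of all promoters.

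Between db/db and control lines, 2 of the 10 genes passed the test, Plagl1 downward and Impact upward, in a comparison in which 16.9% of all 19700 genes passed. The median log2 fold change of the 10 was -0.06 and that of all genes 0.00. Adjusted p-values throughout come from the quasi-likelihood test of edgeR, corrected by Benjamini and Hochberg's method over all tested genes, with a threshold of 0.05. The other 8 had log2 fold changes between -0.79 (Nnat) and 0.12 (Peg10). The value of Nnat ranged from -1.064 to -0.49 when 1 line was left out. Nnat passed in fits of single libraries with and without the replicate block (edgeR adjusted p = 0.04 and 0.035). Those fits count duplicates of a line as separate samples, and 41.8% and 41.3% of all genes passed in them.

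Plagl1 encodes a zinc finger transcription factor that restrains cell division (chromosome 10, 13060504 to 13131694, plus strand, GRCm38). Control lines had 23.6 and 21.7 CPM (A5) and 24.8 and 25.3 CPM (B1). In db/db lines it was 9.1 and 8.46 CPM (db5) and 12.6 and 13.1 (db7), and in the corrected lines 27.1 and 26.2. All 4 db/db lines thus lay below all control and corrected lines. Plagl1 fell by 1.14 ± 0.14 (SE) on the log2 scale in db/db against control lines (edgeR adjusted p = 0.00091, n = 4 and 4). In the corrected lines it rose by 1.30 ± 0.16 over db/db lines (edgeR adjusted p = 0.00041, n = 2 and 4). The corrected lines differed from control lines by 0.16 ± 0.17, which did not pass the test (edgeR adjusted p = 0.49). Within the db/db lines db7 lay above db5 by 0.54 ± 0.07 (edgeR adjusted p = 5.4e-05).

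Impact encodes an inhibitor of the stress kinase GCN2, which slows protein synthesis when amino acids are scarce (chromosome 18, 12955852 to 12992950, plus strand). Its level was 210 and 195 CPM in A5, 172 and 176 in B1, 261 and 269 in db5 and 228 and 253 in db7. Corrected lines had 128 and 133 CPM. Its order was the reverse of that of Plagl1 between groups, with db/db lines highest and corrected lines lowest, and no group overlapped another. Impact rose by 0.43 ± 0.08 in db/db against control lines (edgeR adjusted p = 0.0059). In corrected lines it fell by 0.95 ± 0.10 from db/db lines (edgeR adjusted p = 0.00014) and by 0.53 ± 0.09 from control lines (0.0028), so the corrected level was below both.

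With the shared name as the replicate, which leaves 2 values in each group, 0 of the 10 genes passed between control and db/db lines, and 0.161% of 21134 genes did. At an unadjusted p under 0.05 there were 2 of 10, beside 15.9% of all genes. They were again Plagl1 (log2 -1.14 ± 0.19, edgeR adjusted p = 0.1) and Impact (0.43 ± 0.10, 0.17). DESeq2 on the 10 lines also called these 2 genes. The fibroblast marker sums given above were lower in every db/db than in every control line. In the fit of lines 6 of 9 tested fibroblast markers fell, where 16.9% of all genes passed. With the shared name as the replicate 0 of the 9 were called, and 6 had an unadjusted p under 0.05.

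**Figure D1:**
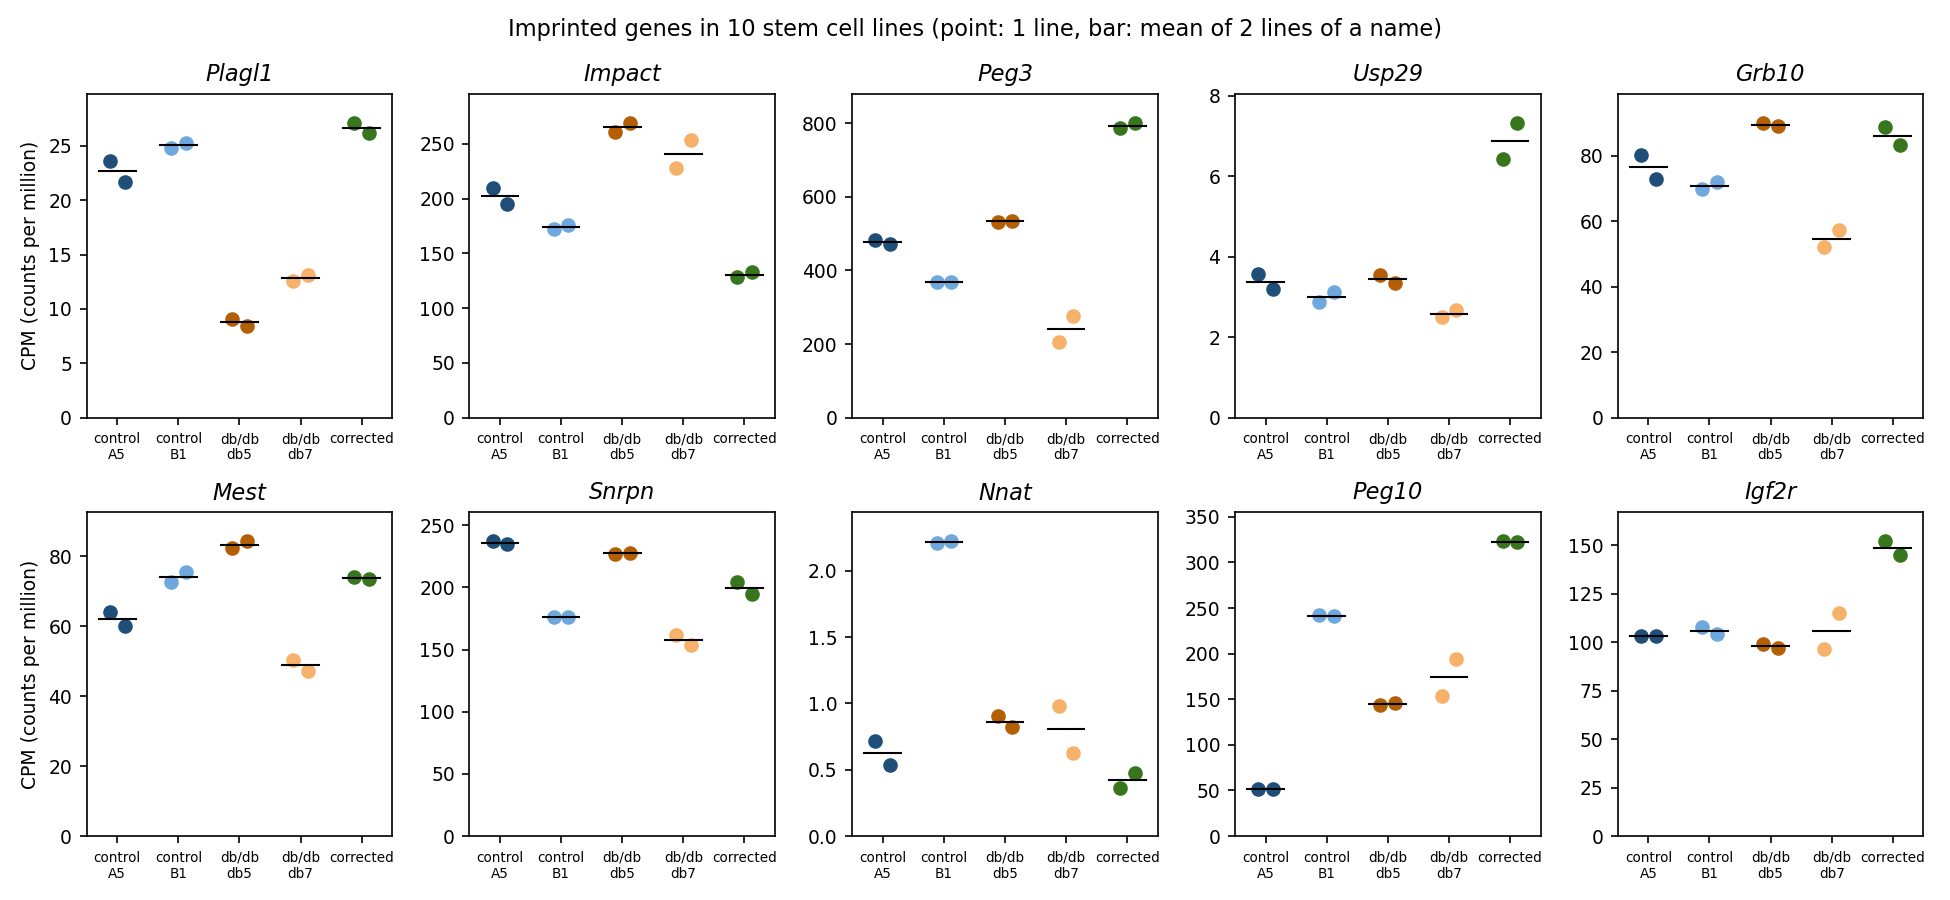
CPM of the 10 imprinted genes (vertical axes, each from 0) in the 10 lines, grouped by name on the horizontal axes. Each point is a line and each bar the mean of the 2 lines of a name or of the corrected lines. Plagl1 is lowest in the 4 db/db lines (8.46 to 13.1 CPM), Igf2r and Usp29 are highest in the corrected lines, and Peg10 is lowest in the A5 lines (51.5 and 51.9 CPM).

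In corrected against db/db lines 5 of the 10 genes passed the test, with Plagl1, Usp29, Peg3 and Igf2r up and Impact down, where 36.7% of all genes passed. The median log2 fold change was 0.40 for the 10 genes and 0.02 for all genes. In corrected against control lines 4 passed, with Usp29 and Igf2r up and Impact and Nnat down, where 33.2% of all genes passed. Both comparisons use the same corrected lines, so they are not independent of each other. With the shared name as the replicate the counts were 4 and 3 of 10, without Peg3 and Nnat, against 15.5% and 12.1% of all genes. In that fit the corrected lines still entered as 2 replicates.

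Peg3 and Usp29 are read in opposite directions from the shared start region shown above. Peg3 encodes a zinc finger protein (chromosome 7, 6703892 to 6730431, minus strand) and Usp29 a protein of the ubiquitin-specific protease family (chromosome 7, 6730578 to 6967219, plus strand). Peg3 was at 484 and 473 CPM in A5, 369 and 369 in B1, 533 and 534 in db5 and 206 and 275 in db7. Corrected lines had 786 and 801 CPM. Usp29 was at 3.57 and 3.19 CPM in A5, 2.88 and 3.11 in B1, 3.54 and 3.34 in db5 and 2.5 and 2.67 in db7. Corrected lines had 6.43 and 7.32 CPM. Both genes were highest in the corrected and lowest in the db7 lines, with the values of A5 and db5 lines overlapping for Usp29.

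Usp29 rose in corrected lines by 1.19 ± 0.16 against db/db lines (edgeR adjusted p = 0.00065) and by 1.11 ± 0.17 against control lines (0.0011). Peg3 rose by 1.04 ± 0.33 against db/db lines (edgeR adjusted p = 0.033). That call of Peg3 ended without db/db line 4 (edgeR adjusted p = 0.065), corrected line 1 (0.13) or corrected line 2 (0.14), with the shared name as the replicate (0.099) and in a fit of only these 2 groups (0.076). Against control lines Peg3 was 0.91 ± 0.33 higher, which did not pass (edgeR adjusted p = 0.059). It passed with DESeq2 (adjusted p = 0.031), with library size alone (edgeR adjusted p = 0.036) and without db/db line 1, 2 or 3 (0.049, 0.02 and 0.049). It also passed in the fit of only these 2 groups (edgeR adjusted p = 0.0031), but not with the shared name as the replicate (0.14). In fits of single libraries Peg3 passed with and without the replicate block (edgeR adjusted p = 0.0079 and 0.0026). Those fits count duplicates of a line as separate samples, and 51.6% and 53.6% of all genes passed in them. Between db7 and db5 lines Peg3 fell by 1.15 ± 0.10 (edgeR adjusted p = 3.4e-06) and Usp29 by 0.41 ± 0.11 (0.012). DESeq2 did not call the second of these (adjusted p = 0.057), nor did edgeR without db/db line 1 (0.078).

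Of the 3 tested partners at this locus, the zinc finger gene Zim1 rose in corrected against db/db lines, from a mean of 0.772 to 1.65 CPM (1.09 ± 0.30, edgeR adjusted p = 0.019). Zim2 and Zfp264 were called in no comparison between groups.

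Igf2r encodes the receptor that clears insulin-like growth factor 2 and sorts lysosomal enzymes (chromosome 17, 12682406 to 12769664, minus strand). Its level was 103 and 103 CPM in A5, 108 and 104 in B1, 99.2 and 97 in db5 and 96.5 and 115 in db7 lines. The corrected lines stood above all of these, at 152 and 145 CPM. Igf2r rose in corrected lines by 0.54 ± 0.08 against db/db lines (edgeR adjusted p = 0.00072) and by 0.51 ± 0.08 against control lines (0.0013). Control and db/db lines differed by -0.03 ± 0.06 (edgeR adjusted p = 0.75). Airn, the paternally read noncoding RNA that overlaps Igf2r on the opposite strand, was under 1 CPM in each group, at means of 0.173, 0.15 and 0.388 CPM in control, db/db and corrected lines. It was singled out for its position after its values were seen, and it too rose from db/db to corrected lines (1.38 ± 0.38, edgeR adjusted p = 0.019). No source used here gives the strand setting of the counting, so reads of this overlapping pair cannot be told apart.

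**Figure D2:**
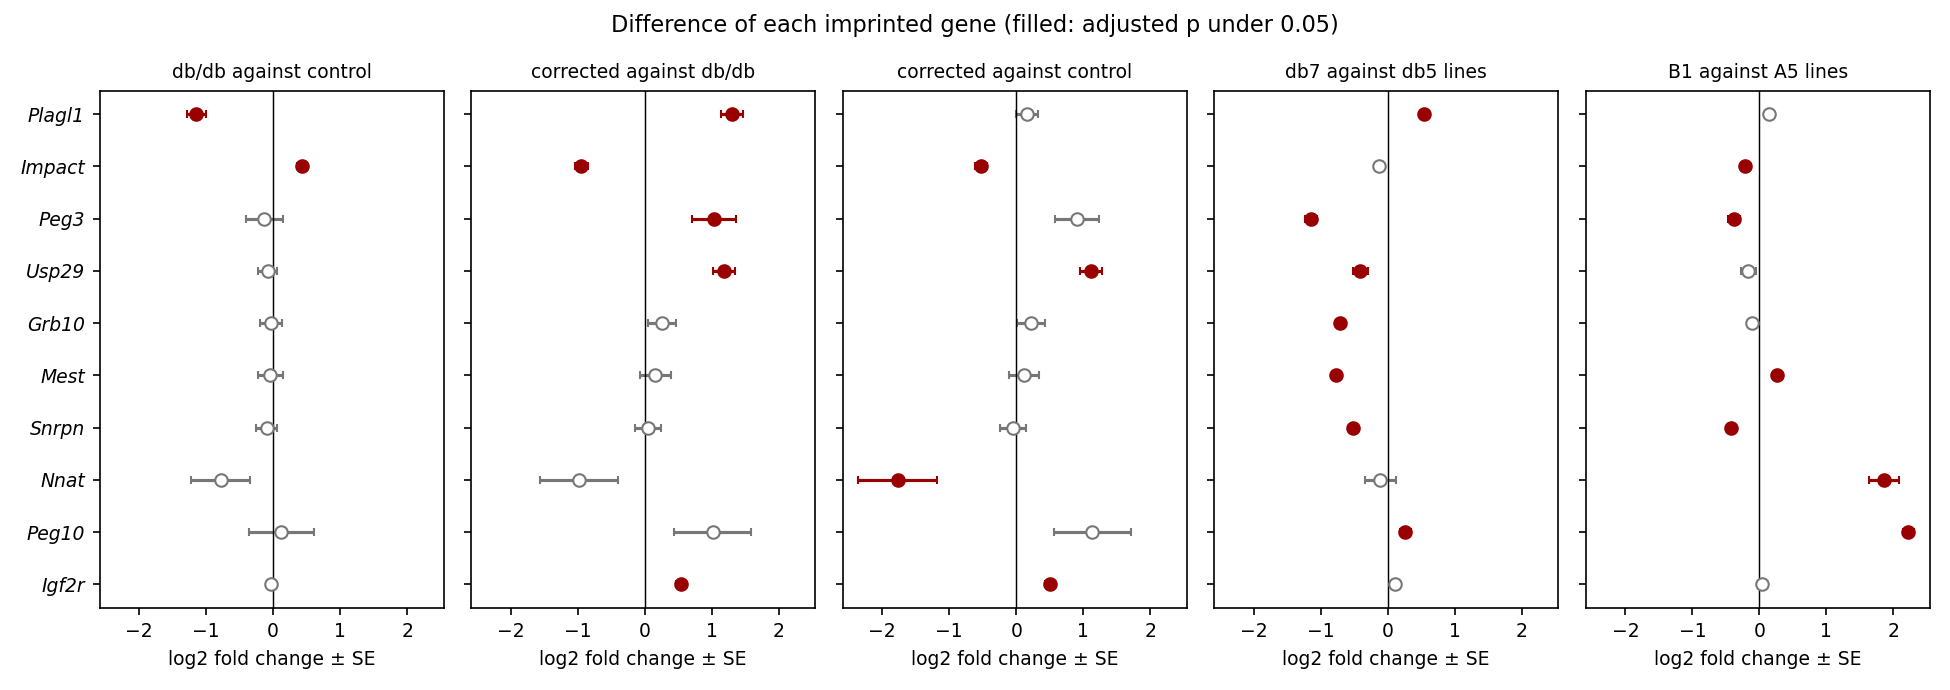
Log2 fold change ± SE (horizontal axes) of the 10 genes (rows) in 5 comparisons (panels), with filled points for an edgeR adjusted p under 0.05. Between db/db and control lines 2 of 10 are filled, where 16.9% of all genes passed. In the separate fit of names 7 are filled between db7 and db5 lines and 6 between B1 and A5 lines, where 42.0% and 38.8% of all genes passed.

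Named lines of 1 genotype were compared in a separate fit, whose spread is only that between lines of a kind. The spread in the fit of groups also holds the differences between names. Counts from these 2 fits therefore cannot be ranked against each other. Between db7 and db5 lines 7 of the 10 passed the test, 5 of them lower in db7, where 42.0% of all genes passed. Between B1 and A5 lines 6 passed, 3 in each direction, where 38.8% of all genes passed. These tests rest on 2 near-copy lines of each name, so they describe the named lines and not the genotype, and their p-values are too small.

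Grb10, Mest and Snrpn were called in no comparison between groups in the fit of all lines and differed between the 2 names of db/db lines. Grb10 encodes an adaptor that restrains insulin and growth factor receptors (chromosome 11, 11930508 to 12038683, minus strand). It was at 80.3 and 73.1 CPM in A5, 69.8 and 72.1 in B1, 90.1 and 89.1 in db5 and 52.1 and 57.3 in db7. Corrected lines had 88.8 and 83.4 CPM. The db7 lines were the lowest and the db5 lines the highest, by 0.71 ± 0.06 (edgeR adjusted p = 2.8e-06), so the db/db group spanned the control group. Corrected lines differed from control lines by 0.22 ± 0.20 (edgeR adjusted p = 0.43), a difference that passed in a fit of only these 2 groups (0.23 ± 0.07, 0.038).

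Mest encodes a membrane protein of the endoplasmic reticulum with a hydrolase fold (chromosome 6, 30723547 to 30748465, plus strand). It was at 64 and 59.9 CPM in A5, 72.7 and 75.5 in B1, 82.2 and 84.2 in db5 and 50.3 and 47.2 in db7. Corrected lines had 74 and 73.6 CPM. The db7 lines were again the lowest, 0.77 ± 0.05 below db5 lines (edgeR adjusted p = 3.1e-07). Copg2, a coat protein gene that overlaps Mest on the opposite strand, moved the other way, from 48.6 CPM in db5 to 63 in db7 lines (0.38 ± 0.05, edgeR adjusted p = 9.5e-05). The strand setting of the counting is not given in the sources used, so reads of Mest and Copg2 where they overlap cannot be told apart. Copg2 was singled out for its position after its values were seen.

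Snrpn encodes SmN, a protein of the splicing machinery, and shares its transcript with Snurf (chromosome 7, 59982495 to 60140219, minus strand), so how reads were divided between these 2 genes is uncertain. Snrpn was at 237 and 235 CPM in A5, 176 and 176 in B1, 227 and 228 in db5 and 162 and 154 in db7. Corrected lines had 204 and 195 CPM. One name of each genotype was thus high and the other low. Snrpn fell by 0.53 ± 0.04 in db7 against db5 lines (edgeR adjusted p = 1.7e-06) and by 0.42 ± 0.04 in B1 against A5 lines (8.6e-06). Between groups, db/db lines differed from control lines by -0.10 ± 0.16 (edgeR adjusted p = 0.71). Corrected lines differed from db/db lines by 0.05 ± 0.19 and from control lines by -0.05 ± 0.19 (0.87 for both).

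The other genes of the Snrpn locus did not follow 1 pattern. Snhg14, the long noncoding RNA that starts at Snrpn, rose in corrected lines to 64 CPM from 39.5 in db/db lines (0.69 ± 0.13, edgeR adjusted p = 0.0035) and 40.4 in control lines (0.67 ± 0.14, 0.005). The paternally read genes Ndn, Magel2 and Mkrn3 fell in corrected against control lines, by 0.88 ± 0.21, 1.27 ± 0.38 and 0.76 ± 0.22 (edgeR adjusted p = 0.011, 0.027 and 0.025). Peg12 fell in db/db against control lines from 17.4 to 9.64 CPM (-0.85 ± 0.25, edgeR adjusted p = 0.045). By name it was at 13.6 CPM in A5, 21.1 in B1, 12.5 in db5 and 6.75 in db7 lines, so A5 and db5 were close. With the shared name as the replicate 0 of 25 tested partner genes over all loci were called between these groups. Ube3a, which encodes a ubiquitin ligase and is imprinted mainly in neurons, was called in no comparison (93 CPM in control, 108 in db/db and 103 in corrected lines).

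Peg10 had the widest range of the 10 genes across kinds of line, 6.25-fold. It derives from a retrotransposon and is required for the placenta (chromosome 6, 4747306 to 4760517, plus strand). The A5 lines had 51.9 and 51.5 CPM and the B1 lines 242 and 241. It was 144 and 146 CPM in db5, 154 and 194 in db7 and 323 and 322 in corrected lines. Both names of db/db lines lay between the 2 names of control lines, and the corrected lines lay above all others. Peg10 rose by 2.23 ± 0.08 in B1 against A5 lines (edgeR adjusted p = 1.4e-08).

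The trophoblast marker sum, led by Tfap2c, was 66.5 and 67.4 CPM in the A5 lines and 39.8 and 41.9 in the B1 lines. Its members Cdx2, Elf5, Hand1 and Tpbpa were under 1 CPM in every line. Of 7 tested trophoblast markers 1 rose and 4 fell in B1 against A5 lines, beside 38.8% of all genes. Their part in the Peg10 values was not tested. The differences of Peg10 between groups did not pass the test. They were 0.12 ± 0.48 for db/db against control (edgeR adjusted p = 0.89), 1.02 ± 0.57 for corrected against db/db (0.19) and 1.14 ± 0.57 for corrected against control (0.15). In a fit of corrected and db/db lines alone, without the spread of the control lines, the difference was 1.02 ± 0.12 (edgeR adjusted p = 0.0018).

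Of the 7 tested partners of Peg10, 5 rose and 0 fell in B1 against A5 lines, beside 38.8% of all genes. The share among genes of their chromosome, whose median was higher in B1 lines, was not counted. Ppp1r9a, a gene for an actin-binding scaffold protein, was at 9.03 CPM in A5 and 18.8 in B1 lines (1.08 ± 0.13, edgeR adjusted p = 6.4e-05). It rose in corrected against control lines from 13.9 to 37.5 CPM (1.43 ± 0.30, edgeR adjusted p = 0.0058). Sgce, a sarcoglycan gene read from the paternal copy in the opposite direction to Peg10, was at 0.577 CPM in A5 and 1.45 in B1 lines (1.25 ± 0.22, edgeR adjusted p = 0.00098). Casd1, beside Sgce, was at 7.93 and 9.7 CPM (0.29 ± 0.08, edgeR adjusted p = 0.012), a difference about that of the chromosome's median given next. Asb4, at 0.208 and 0.179 CPM, did not pass. Sgce, Casd1 and Asb4 were singled out after their values were seen.

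Peg10 and Mest share chromosome 6, and the median of 401 genes of that chromosome was 0.21 above the mean of the 10 lines in both B1 lines, on the log2 scale. Between B1 and A5 lines the chromosome's median differed by 0.26. The Mest difference between these names was 0.26 before and -0.005 after this median was subtracted in each line. That of Peg10 was 2.23 before and 1.96 after. The Mest difference between db7 and db5 lines was -0.77 before and -0.74 after.

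**Figure D3:**
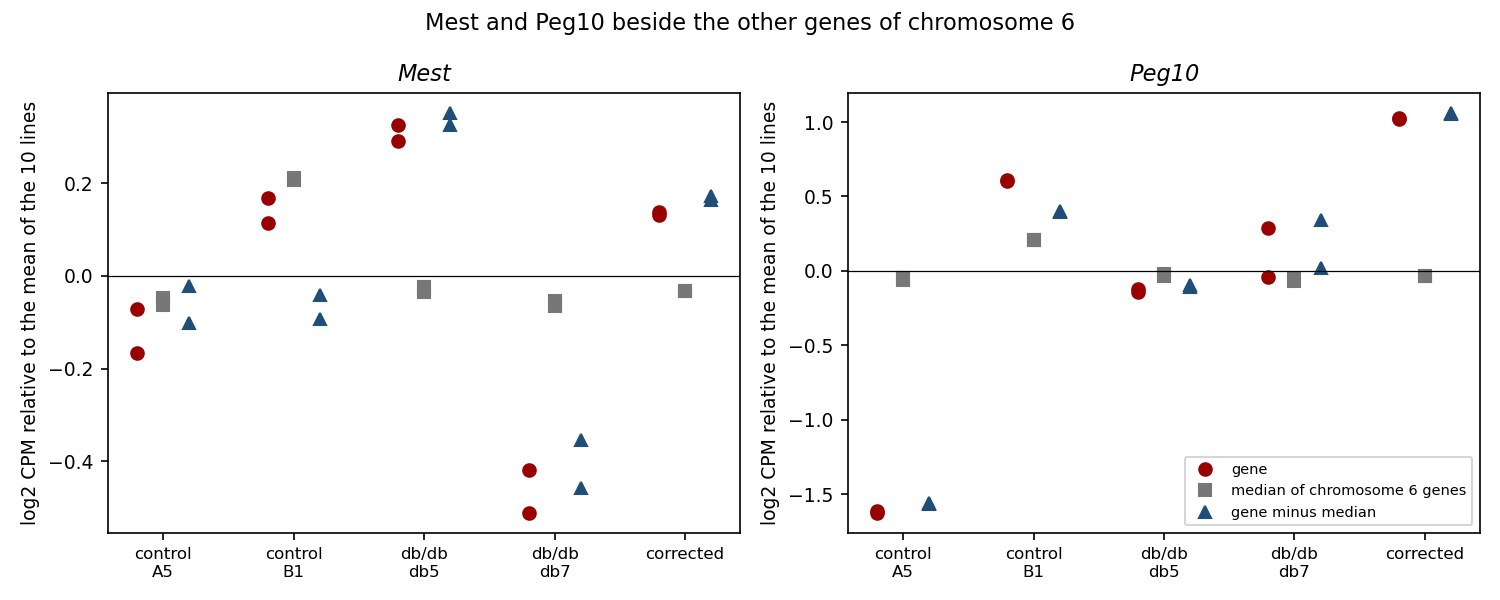
Log2 CPM relative to the mean of the 10 lines (vertical axes) of Mest and Peg10 (circles), of the median chromosome 6 gene (squares) and of the gene after subtraction of that median (triangles), by kind of line on the horizontal axes with 1 point per line. The B1 lines stand 0.21 above the mean at the chromosome median. The A5 and B1 values of Mest overlap after subtraction, whereas Peg10 of A5 lines stays at -1.57 and -1.56.

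Nnat encodes a small membrane protein of developing neurons and lies inside an intron of Blcap (chromosome 2, 157560078 to 157562522, plus strand). Its level was low, at 0.72 and 0.535 CPM in A5, 2.21 and 2.22 in B1, 0.906 and 0.819 in db5, 0.981 and 0.626 in db7 and 0.365 and 0.476 in corrected lines. The B1 lines stood above and the corrected lines below all others, while the db7 lines overlapped both the A5 and the db5 lines. Nnat rose by 1.86 ± 0.23 in B1 against A5 lines (edgeR adjusted p = 5.6e-05). It fell by 1.77 ± 0.59 in corrected against control lines (edgeR adjusted p = 0.042), but that call ended without control line 2 (0.083) or 4 (0.082), db/db line 1 (0.055), 2 (0.055) or 3 (0.056), or corrected line 1 (0.23) or 2 (0.16). It also ended with library size alone as the scaling (edgeR adjusted p = 0.056), in a fit of only these 2 groups (0.092) and with the shared name as the replicate (0.11). Its libraries differed by up to 1.74-fold within a line, the widest such gap of the 10 genes. Neural markers did not move together beside Nnat: their sum, led by Tubb3, was 115 and 119 CPM in B1 and 86.2 and 89.4 in A5 lines, yet 2 rose and 3 fell of 6 tested, with a median log2 fold change of -0.56. Their part in the Nnat values was not tested. Blcap was called in no comparison, at 19.3, 18.1 and 16.9 CPM in control, db/db and corrected lines.

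The listed neighbours of Grb10 differed between the control names. Ddc, which encodes the decarboxylase that makes dopamine and serotonin, was at 7.35 CPM in A5 and 23.1 in B1 lines (1.65 ± 0.08, edgeR adjusted p = 5e-08). It fell in db/db against control lines from 15.2 to 5.91 CPM (-1.37 ± 0.38, edgeR adjusted p = 0.035). Cobl, a gene for an actin-nucleating protein that was singled out after its values were seen, was at 155 CPM in A5 and 303 in B1 lines (0.96 ± 0.05, edgeR adjusted p = 1.4e-07). Grb10 itself differed by -0.11 ± 0.06 between these names (edgeR adjusted p = 0.16).

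**Figure D4:**
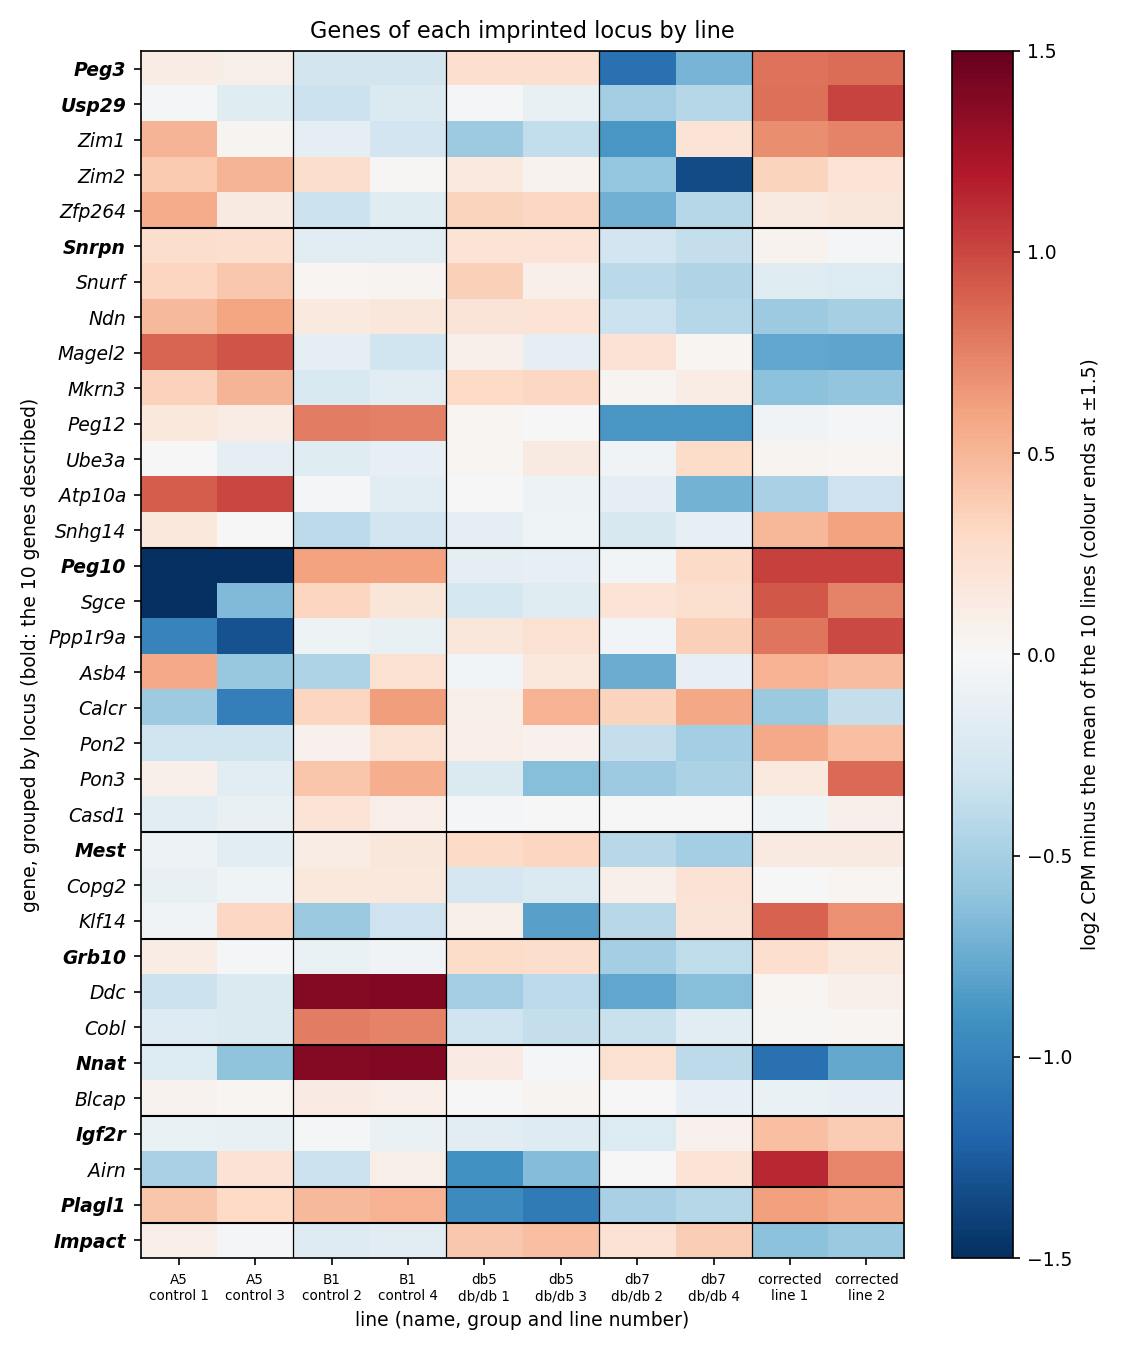
Log2 CPM minus the mean of the 10 lines (colour, ending at 1.5 either way) for the 10 genes (bold) and tested partner genes (rows, by locus) in each line (columns). The A5 columns are low at Peg10, Sgce and Ppp1r9a, and the B1 columns are high at Ddc, Cobl and Nnat.

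Over all loci, 33 partner genes were listed, of which 31 matched the table and 24 passed the filter. In db/db against control lines 2 fell and 0 rose, where 16.9% of all genes passed. With the shared name as the replicate 0 of 25 tested partners were called in that comparison, and 0.161% of all genes. In corrected against db/db lines 5 rose and 1 fell, beside 36.7% of all genes, and in corrected against control lines 3 rose and 3 fell, beside 33.2%. Counts with the shared name as the replicate were 2 up and 0 down in each of these comparisons, beside 15.5% and 12.1%. Between db7 and db5 lines 1 rose and 7 fell, beside 42.0%, and between B1 and A5 lines 9 rose and 7 fell, beside 38.8%. Only the last of these, 16 of 24, was above the share of all genes. Of its 9 rises, 5 were at the Peg10 locus and 1 at the Mest locus. Both loci lie on chromosome 6, whose median was 0.26 higher in B1 than in A5 lines. The part of that shift in the count was not tested. Of 54 protein-coding genes nearest to the members that are on no imprinted list, 13 rose and 15 fell between B1 and A5 lines, beside 38.8% of all genes. Between db/db and control lines 3 rose and 9 fell, beside 16.9%.

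Of 23 genes from other imprinted loci, 21 were tested. In db/db against control lines 0 rose and 3 fell, beside 16.9% of all genes. Among the 3 were the noncoding RNA Peg13 (-0.54 ± 0.11, edgeR adjusted p = 0.0093) and H13, a gene for a signal peptide peptidase (-0.34 ± 0.09, 0.036). With the shared name as the replicate 0 of the 21 were called. In corrected against db/db lines 6 rose and 4 fell, beside 36.7% of all genes. Gnas, which encodes a G protein subunit, rose from 130 to 216 CPM (0.73 ± 0.12, edgeR adjusted p = 0.0014). Commd1, which regulates copper export and NF-kappaB, fell from 28.3 to 20.4 CPM (-0.48 ± 0.08, edgeR adjusted p = 0.0012). In corrected against control lines 4 rose and 3 fell, beside 33.2% of all genes. Counts with the shared name as the replicate were 2 up and 2 down against db/db lines, beside 15.5% of all genes. Against control lines they were 1 up and 2 down, beside 12.1%. The 17 listed genes of distal chromosome 7 and the Dlk1-Dio3 cluster gave 7 falls and 0 rises in db/db against control lines, beside the 16.9% of all genes. With the shared name as the replicate edgeR called 0 of these 17 (7 at an unadjusted p under 0.05) and 34 of 21134 genes in all.

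Of 15 genes for proteins that set, keep or remove imprints, 2 rose and 0 fell in db/db against control lines, beside 16.9% of all genes. They were the methyltransferase Dnmt3a, from 25.6 to 41.3 CPM (0.69 ± 0.17, edgeR adjusted p = 0.024), and the histone methyltransferase Setdb1, which acts with TRIM28 (0.44 ± 0.12, 0.036). By name Dnmt3a was at 23.3 CPM in A5, 28 in B1, 50.9 in db5 and 31.7 in db7 lines. Setdb1 was at 217 CPM in A5, 160 in B1, 231 in db5 and 279 in db7 lines, so A5 and db5 were close. With the shared name as the replicate 0 of the 15 were called between db/db and control lines. In corrected against db/db lines 4 rose and 3 fell, beside 36.7% of all genes. The demethylating enzyme Tet3 rose from 19.8 to 46.3 CPM (1.22 ± 0.12, edgeR adjusted p = 0.00012). The imprint keeper Zfp57 went from 315 to 412 CPM (0.39 ± 0.07, edgeR adjusted p = 0.0017). Setdb1 fell (-0.68 ± 0.15, edgeR adjusted p = 0.0072). In corrected against control lines 6 rose and 3 fell, beside 33.2% of all genes. Dppa3, whose protein shields methylation in the early embryo, fell from 3.76 to 1.42 CPM (-1.40 ± 0.27, edgeR adjusted p = 0.0036). Counts of the 15 with the shared name as the replicate were 3 up and 1 down against db/db lines, beside 15.5% of all genes. Against control lines they were 4 up and 2 down, beside 12.1%.

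The genes most like each member over the 10 lines were sought among 9050 genes of at least 10 CPM on average, by Pearson's r of log2 CPM. Usp29 and Nnat lie below that level and were compared with all of them. The 10 lines share kinds, so high values arise readily and are given as a description. The closest to Plagl1 was Nhsl1 (r = 0.9823), to Impact Gtf3c6 (0.9905), to Peg3 Kank4 (0.9857), to Usp29 Npl (0.9865) and to Grb10 Ywhaz (0.9779). The closest to Mest was Prkcz (0.9918), to Snrpn Slc28a1 (0.9799), to Peg10 Ncoa1 (0.9873) and to Igf2r Mib1 (0.9841). For Nnat, on chromosome 2, all 3 closest genes (Nfu1, Bid and Mrps35) lie on chromosome 6, the chromosome whose median was higher in B1 lines.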

How the data were processed

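The 19 libraries of 10 lines were prepared with a TruSeq stranded mRNA kit, per the labels' protocols. Their estimated counts per gene were deposited as 1 table (79.7% of values whole within 1e-06). The submitters' processing notes name kallisto and GRCm38, and its version, index and strand setting are not given in the sources used. Names were matched for 51336 of 52143 gene identifiers, with 99.38% of counts.

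Counts were rounded in each library and summed per line, since the labels do not say that duplicates came from separate cultures. All 3 groups entered 1 fit. Testing used edgeR 4.0.16 in R 4.3.3 after filterByExpr and TMM scaling (quasi-likelihood F-test, Benjamini-Hochberg adjustment, threshold 0.05). Comparisons of names used a fit with 5 kinds of line. The SE is the log2 fold change divided by the square root of F. Log2 CPM values had a prior count of 2. The scripts were tested on simulated data. Python 3.11.15, pandas 2.3.3 and matplotlib 3.10.9 made tables and figures.

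The 10 genes and all lists were chosen with earlier results of these data known. All 10 are named in each comparison. Of the lists, genes with at least 1 CPM in some group and a call between groups could be named, at most 4 per list and comparison by lowest p, and exceptions are stated. Like genes were the 3 of highest Pearson's r for each member.

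Duplicate numbers in the titles paired the libraries: in 12 pairs of a control and a db/db line, libraries with 1 number deviated together from the means of their lines (r = 0.235 to 0.562 over 9066 genes). Alternatives were DESeq2's size factors, library size alone, the DESeq2 1.42.0 test, no filter on low counts, leaving out each line or the second library of db/db line 2, single libraries with or without a block for the duplicate number, the shared name as the replicate, and only the 2 groups compared. The p-values between groups measure the spread between lines, and those between names the spread between the 2 lines of a kind. In the fits of single libraries and of shared names they measure the spread between those units.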

Additional observations from a re-analysis of the deposited data

Results flagged for a closer look

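Igf2r in the 4 db/db lines stood out because 1 line lay far from the others. Line 4 was at 115 CPM while lines 1 to 3 were at 99.2, 96.5 and 97 CPM, so the gap to the nearest line was 0.85 of the whole range, above Dixon's 95% critical value for 4 samples. The 10 genes in 2 groups of 4 lines gave 20 groups that were checked in this way, and chance flags about 1 in 20 groups. Without db/db line 4 the difference of db7 from db5 lines was -0.03, and without db/db line 2 it was 0.23 (edgeR adjusted p = 0.00024).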

How the results depend on the processing

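Over the 10 genes and all alternatives, 798 of 870 values kept their direction and their side of the threshold, 24 newly passed it, 27 no longer passed it and 21 changed direction. With the shared name as the replicate, 0 of the 10 genes were called between db/db and control lines. In fits of single libraries, 3 genes were called with the replicate block between db/db and control lines and 6 in each comparison of the corrected lines, beside 41.8%, 54.5% and 51.6% of all genes. Without the block the shares of all genes were 41.3%, 56.6% and 53.6%, and no member's call differed. The genes gained over the fit of lines were Nnat between db/db and control lines, Peg10 between corrected and db/db lines, and Peg3 and Peg10 between corrected and control lines. The corrected libraries entered the block at the level of duplicate 1, since their letters pair nothing. Direction changed only where no call was made. Grb10 was at 0.002 in db/db against control lines without the second library of db/db line 2, and Peg10 at -0.002 without and -0.006 with the replicate block. Snrpn was at 0.085 in corrected against control lines with library size alone. Leaving out 1 line gave, in db/db against control, -0.326 to 0.079 for Peg3, -0.166 to 0.002 for Usp29, -0.16 to 0.095 for Grb10, -0.183 to 0.086 for Mest and -0.164 to 0.47 for Peg10. For Snrpn it gave -0.04 to 0.142 in corrected against db/db and -0.118 to 0.028 in corrected against control lines, and between db7 and db5 lines -0.467 to 0.177 for Nnat and -0.029 to 0.232 for Igf2r. The cause was not tested. Library size alone raised the median of all genes by 0.17 in corrected against db/db and 0.13 in corrected against control lines. Its splits into higher and lower calls were 5215 to 1817 and 4407 to 2049, against 3683 to 3552 and 3184 to 3353 as reported, and 1085 to 2156 against 1460 to 1872 for db/db against control. Between db7 and db5 lines Peg10 lost its call without db/db line 1 (edgeR adjusted p = 0.11), 3 (0.084) or 4 (0.071). Between B1 and A5 lines Impact lost it without control line 1 or 2 (0.095 and 0.072) and Peg3 without control line 1, 2 or 4 (0.053, 0.054 and 0.051). The corrected lines number 2, so their spread is the least well measured.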
